A study of Homo sapiens with 6 samples.

Results

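Actin monomers, the small proteins that bind them, and the myosin light chains and nucleators that act on the filaments are encoded by some of the most abundant messages of a tumor cell. The 10 genes described here, TMSB10, TMSB4X, ACTB, ACTG1, PFN1, CFL1, MYL6, MYL12A, MYL12B and ARPC2, were chosen by a list of symbols for the high levels of their transcripts in these same samples, and all 10 were found among 60930 rows of a matrix of TPM values (transcript abundance scaled by transcript length and by library). Because their abundance chose them, their levels are given as a description, and the tests below concern the difference between tumor regions, which is not part of the rule for the members. RNA was measured in 3 tumor core (TC) and 3 tumor margin (TM) samples of tumors that MDA-MB-231 cells, a line from a human breast cancer without hormone receptors or HER2 amplification, formed in young adult female NSG mice after orthotopic injection of unmodified (WT) cells into the mammary fat pad. Such mice keep mouse stroma and vessels but lack lymphocytes. Both groups carried the same cells and received no other treatment that the labels name, and the labels do not say which core and margin came from the same mouse, so p-values measure the spread between these samples.

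Thymosins hold actin monomers in reserve, profilin hands monomers to growing filament ends, and cofilin severs old filaments and returns their monomers to the pool. The Arp2/3 complex starts new branches on existing filaments, and non-muscle myosin II, whose heavy chains carry essential and regulatory light chains, pulls filaments past each other. In breast cancer cells this machinery drives protrusion, contraction and invasion, and the transcription factor SRF with its cofactors MRTF reads the pool of free actin and controls many of the genes themselves.

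Markers of the cell line were checked first. Vimentin (VIM), the main intermediate filament of these cells, lay between 3797 and 5283 TPM in the 6 samples and was the highest of 8 listed tumor cell markers. KRT81 was the lowest of the 8, at only 1.40 to 3.15 TPM, and the next lowest was EGFR, at 42.1 to 62.8 TPM. The estrogen receptor gene ESR1, which triple-negative cells do not use, stayed at or below 0.13 TPM. ERBB2, the HER2 gene, listed among the markers low in this line, was detected at 22.3 to 24.1 TPM in TC and 30.8 to 40.7 TPM in TM. TM replicates 1 and 2 stood apart in signal from other tissue. The summed level of 14 skeletal muscle markers was 199 and 538 TPM there, against 3.22 TPM in TM replicate 3 and 4.56 to 8.35 TPM in TC, and 13 of the 14 had the lower mean in TC. The summed level of 10 fibroblast markers was 482 and 1023 TPM in those samples, against 90.7 TPM in TM replicate 3 and 67.4 to 229 TPM in TC, and 8 of the 10 had the lower mean in TC. C1QA, C1QB, C1QC and TYROBP, 4 of 14 macrophage and leukocyte markers, were at 0 in all 6 samples, while CD68 ran from 84.8 to 94.2 TPM and CSF1R from 1.99 to 9.12 TPM, and the list summed to 96.5 to 110.2 TPM in TC and 103 to 114 TPM in TM. Endothelial markers summed to 38.1 to 42.4 TPM in TC and 44.0 to 56.4 TPM in TM, and adipocyte markers to 0.66 to 0.96 and 1.35 to 1.64 TPM. The endothelial and adipocyte sums were lower in TC without overlap, unlike the skeletal muscle, fibroblast and leukocyte sums above. The 5 markers low in this line were also separate, summing to 26.6 to 30.1 TPM in TC and 36.0 to 46.0 TPM in TM. So was the smooth muscle and pericyte sum, though its nearest samples were almost equal, at 76.55 TPM in TC and 76.6 TPM in TM. The lower mean was in TC for 8 of 11 endothelial and 4 of 8 adipocyte markers. Adipocyte markers were all at very low levels, and only 3 of the endothelial markers were high enough to be tested. The highest endothelial markers were ESAM, at 23.2 to 35.6 TPM, and ROBO4, at 7.35 to 12.3 TPM. Counts of lower means in these lists are to be read against all genes tested, of which 9283 of 13861 had a negative difference. The part of any of these lists in the differences below was not tested. In bulk tissue, fewer cells of a type and less RNA per cell cannot be told apart, and no step that separates mouse from human reads is described in the sources used here. Depth is unknown, since TPM does not keep it.

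In the order of their mean level, the members ran from TMSB10 at 12514 TPM through TMSB4X at 5224, ACTB at 4865, ACTG1 at 3496, PFN1 at 3449, MYL6 at 2866 and CFL1 at 1696 TPM to MYL12B at 400.2, ARPC2 at 366 and MYL12A at 339 TPM. TMSB10 was the gene with rank 2 among all annotated genes by mean TPM, and MYL12A had rank 375. Only the steps from TMSB10 to TMSB4X, from MYL6 to CFL1 and from CFL1 to MYL12B separated neighbours whose ranges over the 6 samples did not overlap. The order of TMSB4X and ACTB depended on the region, with TMSB4X above ACTB in 3 of 3 TC samples and in 1 of 3 TM samples. ACTB lay above ACTG1 in 6 of 6 samples, and PFN1 above MYL6 in 6 of 6, although each pair's ranges overlapped. The 10 members together took 3.47%, 3.72% and 3.89% of all TPM in the TC samples and 3.41%, 3.49% and 3.15% in the TM samples. TMSB10 alone held between 30.1% and 40.9% of that sum.

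**Figure D1:**
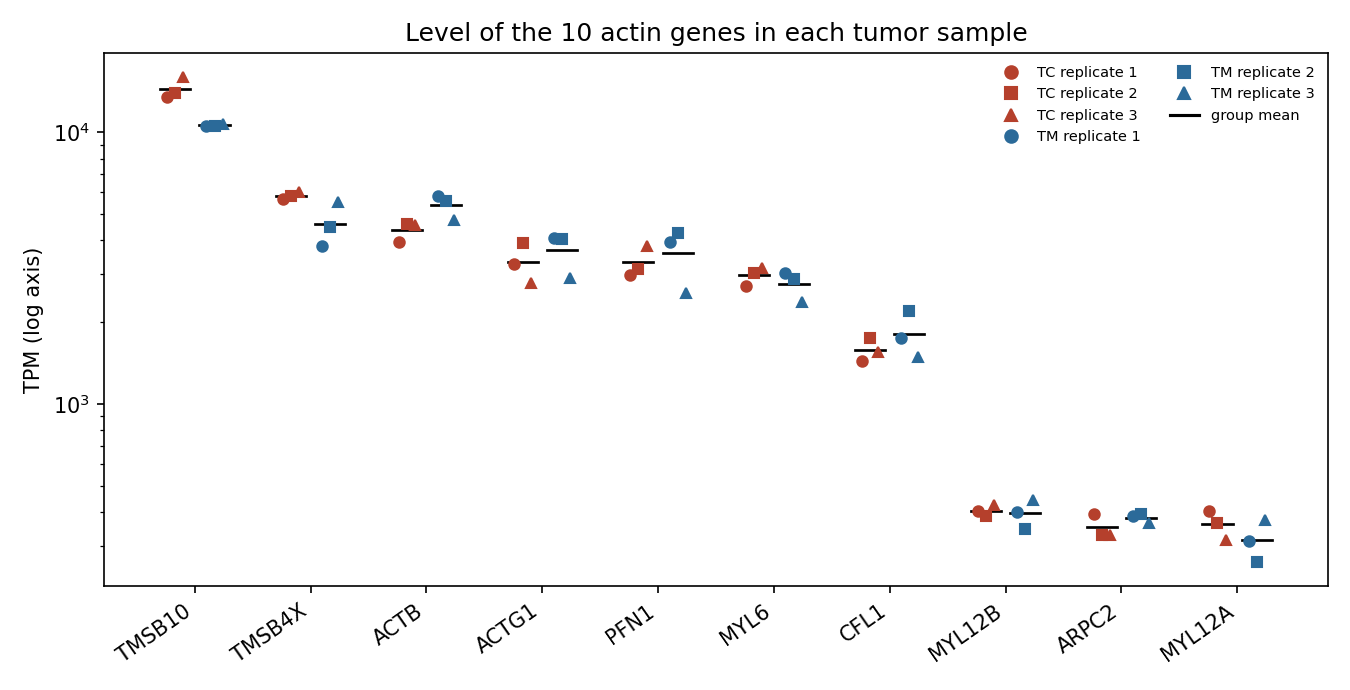
Level of each member in TPM on a log axis, in the 3 TC (red) and 3 TM (blue) samples, with replicates 1, 2 and 3 as circles, squares and triangles and a black line at each group's mean. The red and blue points are separate for TMSB10, TMSB4X and ACTB, and overlap for the other 7 members.

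Both thymosins were higher in TC and ACTB was lower, in each case with no overlap between the groups, and no member passed the threshold of an adjusted p of 0.05. The test was limma on log2(TPM + 1) over the 13861 genes that reached 1 TPM in 3 or more samples, a filter that all 10 members passed in every sample. Across all genes tested, 19 were called, or 0.137%. With no adjustment, p was under 0.05 for 1.93% of genes with the higher level in TC and for 14.2% with the lower level in TC. Groups that did not overlap were found for 3.28% of genes in the direction of a higher and 18.9% in the direction of a lower level in TC. Among the 10 members, TMSB10 was the sole gene at an unadjusted p under 0.05, 2 members had higher and 1 had lower levels in TC without overlap, and the median difference was -0.02, beside -0.14 for all genes tested.

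TMSB10 (ENSG00000034510), the thymosin that is often raised in carcinomas, lies on the plus strand at chr2:84905625-84906675 of GRCh38 (GENCODE release 29). Its level was 13421, 13929 and 15935 TPM in TC replicates 1, 2 and 3 and 10571, 10520 and 10710 TPM in the TM samples. The lowest TC sample lay above the highest TM sample, and the 3 TM values were nearly equal, with a coefficient of variation of 0.926%. Core samples averaged 14428 ± 1329 TPM and margin samples 10600.3 ± 98.1 TPM (SD, n = 3 each), a ratio of 1.36. The log2 difference was 0.44 with a standard error of 0.15 and a 95% interval of 0.10 to 0.78 (limma, unadjusted p = 0.0170, adjusted p = 0.198). The difference was 0.43 with an SE of 0.23 when TM replicates 1 and 2, the samples with muscle and fibroblast signal, were left out.

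TMSB4X (ENSG00000205542), on the plus strand at chrX:12975108-12977227, encodes the main actin-sequestering peptide of most cells. Its level was 5673, 5799 and 6041 TPM in TC and 3824, 4467 and 5542 TPM in TM. The groups did not overlap, but TM replicate 3 came close to the TC samples, and the TM samples spread much more widely than the TC samples, with coefficients of variation of 18.8% and 3.21%. The log2 difference of 0.36 (SE 0.17) had an adjusted p of 0.343 by limma. Without TM replicates 1 and 2 it was 0.07 (SE 0.20). The part of the other tissue in the TMSB4X difference was not tested.

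The coding sequences of both thymosins are shown because the pair is the most abundant of the set and their reads must be told apart. They are taken from the transcripts of GENCODE release 29, are 135 bases long each and are written 5′ to 3′ with the stop codon. Capitals mark the 37 positions at which they differ.
TMSB10: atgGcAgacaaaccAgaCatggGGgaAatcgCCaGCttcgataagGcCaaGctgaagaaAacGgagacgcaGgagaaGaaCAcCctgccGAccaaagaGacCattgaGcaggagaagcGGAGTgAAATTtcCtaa
TMSB4X: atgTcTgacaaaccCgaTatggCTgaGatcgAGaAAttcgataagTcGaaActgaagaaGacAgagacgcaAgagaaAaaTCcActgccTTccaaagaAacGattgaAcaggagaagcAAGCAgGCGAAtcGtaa
The identity of the pair was 72.6%, with no run of identical bases longer than 10. The third expressed member of the family, TMSB15B, had 6.51, 5.53 and 4.35 TPM in TC and 4.41, 2.97 and 4.06 TPM in TM, a log2 difference of 0.42 (SE 0.24) with overlapping groups. All 3 thymosin genes tested thus had a difference above 0, and TMSB15A was listed at 0 in all 6 samples.

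ACTB (ENSG00000075624), on the minus strand at chr7:5527147-5563784, encodes beta-actin. It stood at 3935, 4578 and 4562 TPM in TC and at 5809, 5573 and 4735 TPM in TM. All 3 TC samples lay below all 3 TM samples, with TM replicate 3 nearest to them. The log2 difference was -0.30 with a standard error of 0.15 and an adjusted p of 0.375 by limma. It was -0.12 (SE 0.21) without TM replicates 1 and 2.

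ACTG1 (ENSG00000184009), on the minus strand at chr17:81509971-81523847, encodes gamma-actin. It stood at 3274, 3900 and 2783 TPM in TC and at 4080, 4042 and 2898 TPM in TM. Replicate 3 was lowest in both groups, and the groups overlapped. The log2 difference was -0.14, with a 95% interval of -0.58 to 0.29.

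The beginnings of the actin coding sequences are shown because the assignment of a read between these messages depends on where it falls. Their first 93 bases, from the same annotation, hold 18 differences, in capitals.
ACTB: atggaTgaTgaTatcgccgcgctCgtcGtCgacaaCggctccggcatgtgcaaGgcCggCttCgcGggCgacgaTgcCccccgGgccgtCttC
ACTG1: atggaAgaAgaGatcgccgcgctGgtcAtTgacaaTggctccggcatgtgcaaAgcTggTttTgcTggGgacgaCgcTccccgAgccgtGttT
Over the whole coding sequence of 1128 bases there were 99 substitutions, so that the stretch shown is less alike than the whole. The identity was 91.2%, and the longest run of identical bases was 59. Values of the actins, and of their muscle forms, are therefore uncertain to the extent that the counting divided shared reads. The 68 annotated pseudogenes of the 10 members gave no more than 0.429% of any member's TPM in any sample, and 6 of them, ACTBP2, ACTBP11, ACTG1P14, CFL1P4, PFN1P6 and TMSB4XP4, had a mean of at least 1 TPM. ACTBP11, the highest of these, had 12.4 TPM in TM replicate 2 and 2.32 to 6.04 TPM in the other samples.

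The ratio of monomer-binding thymosins to actin does not depend on any factor common to a whole library, since each ratio is taken within a sample. An effect that varies with transcript length does not cancel in it. The reference transcripts have 496 and 495 bases for TMSB10 and TMSB4X, against 1921 and 2011 for ACTB and ACTG1. The part of transcript length in this ratio was not tested. The summed TPM of TMSB10 and TMSB4X was 2.65, 2.33 and 2.99 times that of ACTB and ACTG1 in the TC samples and 1.46, 1.56 and 2.13 times in the TM samples. The groups did not overlap, and TM replicate 3 came nearest to TC. The log2 ratio was higher in TC by 0.64 (SE 0.20, exact permutation test, two-sided, p = 0.1, which is the smallest that 3 against 3 allows, Benjamini-Hochberg adjusted p = 0.8 over 8 ratios). Against TM replicate 3 alone, which lacked the muscle signal, the TC mean was higher by 0.31, and other ratios moved as far in that comparison, by 0.35 for TMSB10 to TMSB4X, 0.36 for PFN1 to actins and -0.41 for the regulatory light chains to MYL6.

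The other 7 ratios overlapped between the groups, with exact permutation p-values from 0.4 to 1. TMSB10 to TMSB4X averaged 2.47 ± 0.15 in the core and 2.35 ± 0.42 in the margin (SD, n = 3 each), and the TM samples ranged from 1.93 to 2.76. ACTB to ACTG1 measured 1.20, 1.17 and 1.64 in the core samples and 1.42, 1.38 and 1.63 in the margin samples. Replicate 3 had the highest value of this ratio in both groups. CFL1 to the summed actins was the least variable ratio in TC, at 0.206 ± 0.0058, beside 0.200 ± 0.025 in TM.

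**Figure D2:**
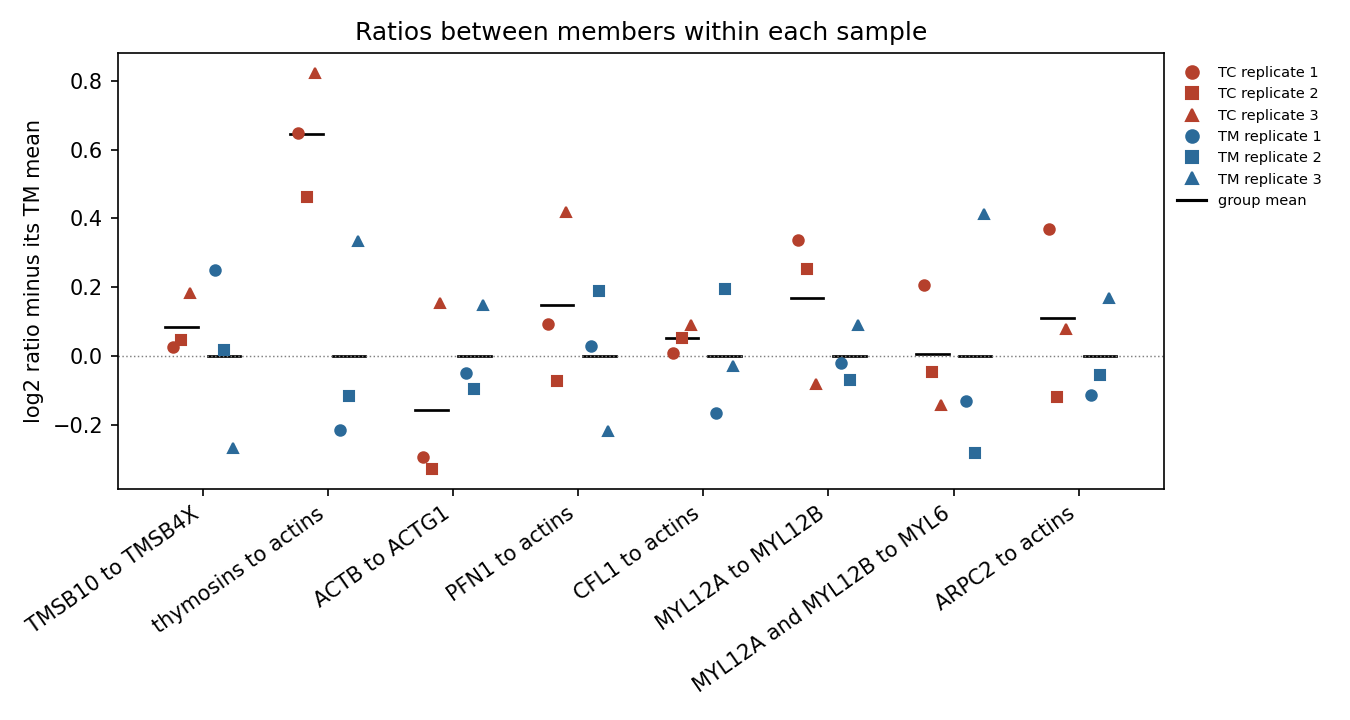
Log2 ratio between members within each sample, less the mean of the TM samples, for TC (red) and TM (blue), with replicates as circles, squares and triangles and a black line at each group's mean; actins stands for ACTB plus ACTG1 and thymosins for TMSB10 plus TMSB4X. The thymosin-to-actin ratio is the sole ratio whose groups are separate, with a TC mean 0.64 above TM.

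PFN1 (ENSG00000108518), profilin 1, at chr17:4945652-4949061 on the minus strand, stood at 2992, 3137 and 3822 TPM in TC and 3928, 4259 and 2554 TPM in TM. TM replicate 3 was the lowest of the 6 samples and the other TM samples were the highest, so that the margin enclosed the core. The log2 difference of -0.08 (adjusted p = 0.890 by limma) became 0.37 (SE 0.21) without TM replicates 1 and 2. PFN2, the second profilin, had a mean of 106 TPM in TC and 100.2 TPM in TM. CAP1, a cyclase-associated protein that works beside cofilin and profilin to recycle monomers, had 227 ± 35 and 255 ± 26 TPM.

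CFL1 (ENSG00000172757), cofilin 1, at chr11:65823022-65862026 on the minus strand, stood at 1443, 1749 and 1556 TPM in TC and 1754, 2188 and 1488 TPM in TM. Its groups overlapped, and the log2 difference was -0.18 (95% interval -0.56 to 0.20). CFL2, its muscle-type paralog, was higher in TC without overlap, at 83.6, 74.3 and 79.4 TPM against 66.5, 73.2 and 67.0 TPM, with an adjusted p of 0.496 by limma. The nearest samples of CFL2 were almost equal, and 3.28% of all genes were higher without overlap. DSTN (destrin), the third member of the family, overlapped between groups at 191 ± 26 and 171 ± 5 TPM.

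The groups overlapped for all 3 myosin light chains. MYL6 (ENSG00000092841), the essential light chain, at chr12:56158161-56163496 on the plus strand, stood at 2722, 3021 and 3176 TPM in TC and 3032, 2871 and 2376 TPM in TM. MYL12A (ENSG00000101608), a regulatory light chain at chr18:3247481-3256236 on the plus strand, stood at 405, 365 and 317 TPM in TC and 312, 261 and 372 TPM in TM. MYL12B (ENSG00000118680), its neighbour on the same strand at chr18:3261479-3278431, stood at 404, 387 and 423 TPM in TC and 400, 346 and 441 TPM in TM. TM replicate 3 had the lowest MYL6 and the highest MYL12B of the 6 samples. The log2 differences were 0.11 for MYL6, 0.21 for MYL12A and 0.04 for MYL12B, with limma adjusted p-values between 0.600 and 0.920. MYL6 was 0.32 without TM replicates 1 and 2 and 0.0082 without TM replicate 3, and MYL12A was 0.39 after median-of-ratios rescaling.

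The regulatory light chains are shown for the same reason as the actins. In the aligned first part of their coding sequences, capitals mark 4 differing bases of MYL12A and 7 of MYL12B, 3 of which are bases that MYL12A lacks.
MYL12A: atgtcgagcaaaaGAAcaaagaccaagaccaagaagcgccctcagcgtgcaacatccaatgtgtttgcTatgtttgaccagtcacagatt
MYL12B: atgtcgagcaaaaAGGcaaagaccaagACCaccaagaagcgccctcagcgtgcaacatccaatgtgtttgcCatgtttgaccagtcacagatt
Over their whole coding sequences the identity was 95.2%, with 22 substitutions and a longest identical run of 77 bases, the highest identity of the 3 paralog pairs shown. How the counting divided reads between these neighbours is not known.

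ARPC2 (ENSG00000163466), which forms with ARPC4 the core of the Arp2/3 complex, lies at chr2:218217094-218254356 on the plus strand. It stood at 394, 330.2 and 328 TPM in TC and 387, 392 and 363 TPM in TM. TC replicate 1 was the highest of all samples and the other TC samples were the lowest, and the log2 difference was -0.12 (95% interval -0.40 to 0.16). Of the 10 listed genes of the complex none was called and none had p under 0.05 before adjustment. ARPC1A and ARPC1B were lower in TC without overlap, 2 of 10 genes, a share near the 18.9% of all genes, and after median-of-ratios rescaling they stood at -0.083 and 0.022. ARPC1B, one of the 5 most abundant other actin genes, had 442, 475 and 454 TPM in TC and 574, 482 and 479.8 TPM in TM.

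The direction of some members depended on how the libraries were scaled. Genes with a negative difference outnumbered those with a positive one, 9283 to 4578, with TPM as deposited, and median-of-ratios rescaling moved the median of all genes from -0.14 to 0.02. Under that rescaling TMSB10 stood at 0.62, TMSB4X at 0.54 and ACTB at -0.12, while PFN1, ARPC2 and ACTG1 turned to 0.10, 0.06 and 0.04. Under quantile normalization TMSB10 stood at 0.77, TMSB4X at 0.24 and ACTB at -0.42, and MYL6 turned to -0.10. The thymosins thus stayed above 0 and ACTB below 0 under both. Mitochondrially encoded genes took 6.08% to 8.82% of TPM in TC and 9.23% to 11.0% in TM, and cytosolic ribosomal protein genes 24.4% to 26.8% and 19.8% to 23.8%, classes whose levels enter every TPM value.

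**Figure D3:**
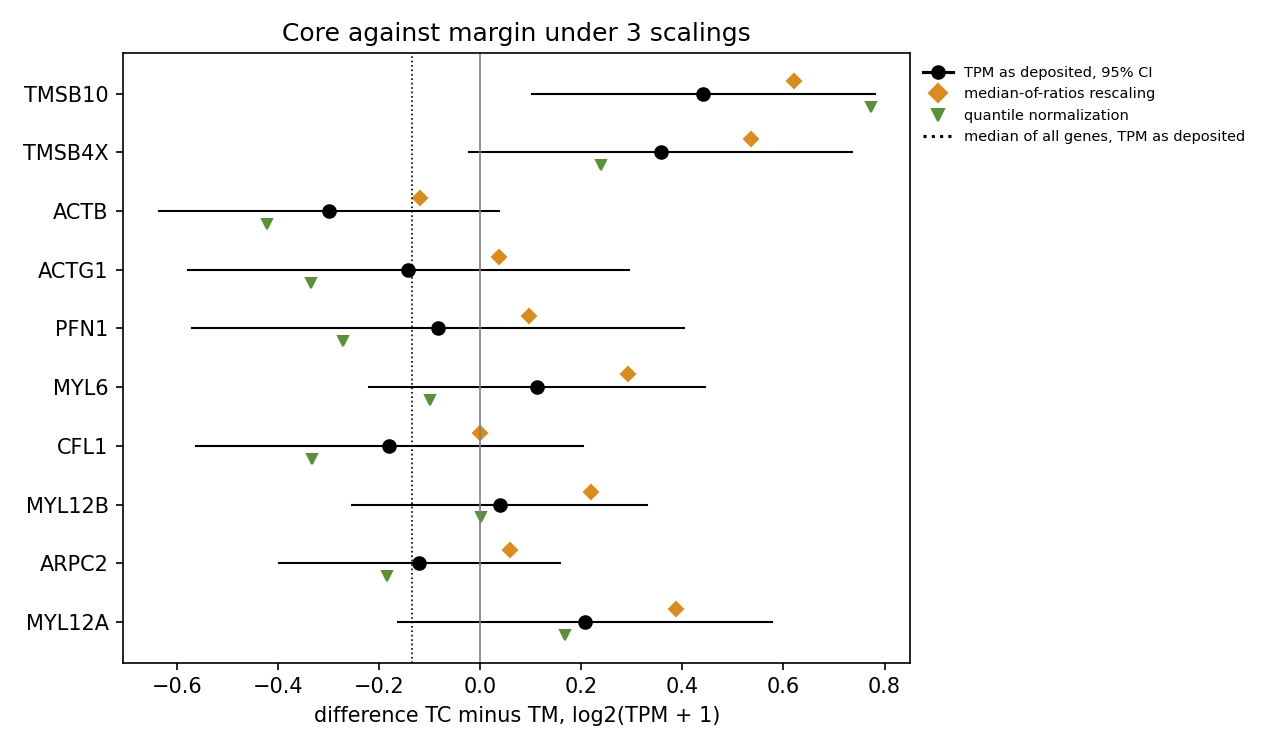
Difference between TC and TM on the log2(TPM + 1) scale for each member, with TPM as deposited (black, bars are 95% intervals), after median-of-ratios rescaling (orange) and after quantile normalization (green); the dotted line is the median of all genes with TPM as deposited. The bar of TMSB10 alone excludes 0, and its 3 points lie between 0.44 and 0.77.

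The rest of the actin machinery was read from a list of 120 other genes in 13 roles, of which 111 were tested. None was called by limma. At p under 0.05 before adjustment TC had the lower level for 16 genes (14.4%) and the higher level for 0, shares to be read against 14.2% and 1.93% of all genes. The groups were separate with TC lower for 26 genes (23.4%) and with TC higher for 2 genes (1.80%), against 18.9% and 3.28% of all genes. The median difference of the 111 genes was -0.16, close to that of all genes. After median-of-ratios rescaling 8 were lower and 6 higher at that p, and without TM replicates 1 and 2 the counts were 7 and 10. The direction of the list as a whole thus depended on the scaling and on the samples used.

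The role that holds the cofilins, their regulators and cortactin included the gene with the smallest p of the list. CTTN (cortactin), which stabilises Arp2/3 branches, had 92.1, 77.1 and 71.5 TPM in TC and 121, 121 and 144 TPM in TM, and the groups were well apart. Its log2 difference was -0.68 (SE 0.14, limma adjusted p = 0.0843), and it was -0.50 after median-of-ratios rescaling and -0.84 without TM replicates 1 and 2. LIMK2, a kinase that inactivates cofilin, was lower in TC by 0.70 on the log2 scale (7.99, 7.12 and 8.63 TPM against 12.4, 13.2 and 14.9 TPM, adjusted p = 0.127). In this role 3 of 12 genes, CTTN, LIMK2 and the kinase TESK1, were lower at an unadjusted p under 0.05, and 6 of 12 were lower without overlap, counts to be read against 14.2% and 18.9% of all genes. Whether the role differs from other genes was not tested.

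Formins, which elongate unbranched filaments, and other nucleators had 4 of 12 tested genes lower at that p, beside 14.2% of all genes. These were FHOD1, FMNL1, FMNL3 and SPIRE2, of which FHOD1 alone kept an unadjusted limma p under 0.05 after median-of-ratios rescaling. The differences of FMNL1, FMNL3 and SPIRE2 were then -0.16, -0.24 and -0.36. Whether this role differs from other genes was not tested. FHOD1 stood at 27.6, 32.8 and 32.6 TPM in TC and 47.2, 46.5 and 62.7 TPM in TM, a difference of -0.72 (SE 0.17, adjusted p = 0.0972 by limma), and -0.999 without TM replicates 1 and 2. CDC42BPB, a kinase that acts on myosin II, was lower by 0.70 on the log2 scale, at 24.0 ± 4.7 TPM against 39.4 ± 5.7 TPM (SD, n = 3 each). The spectrin genes SPTAN1 and SPTBN1, which encode the meshwork under the membrane, had differences of -0.41 each, and of -0.23 each after median-of-ratios rescaling, where neither had p under 0.05. SPTAN1 ran from 97.4 to 105 TPM in TC and from 130.1 to 138 TPM in TM. FLNC and VCL, a filamin and vinculin of focal adhesions, differed by -0.71 and -0.44, with adjusted p-values of 0.210 and 0.235 by limma. FLNC was at -0.22 without TM replicates 1 and 2, and VCL at -0.26 after median-of-ratios rescaling.

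**Figure D4:**
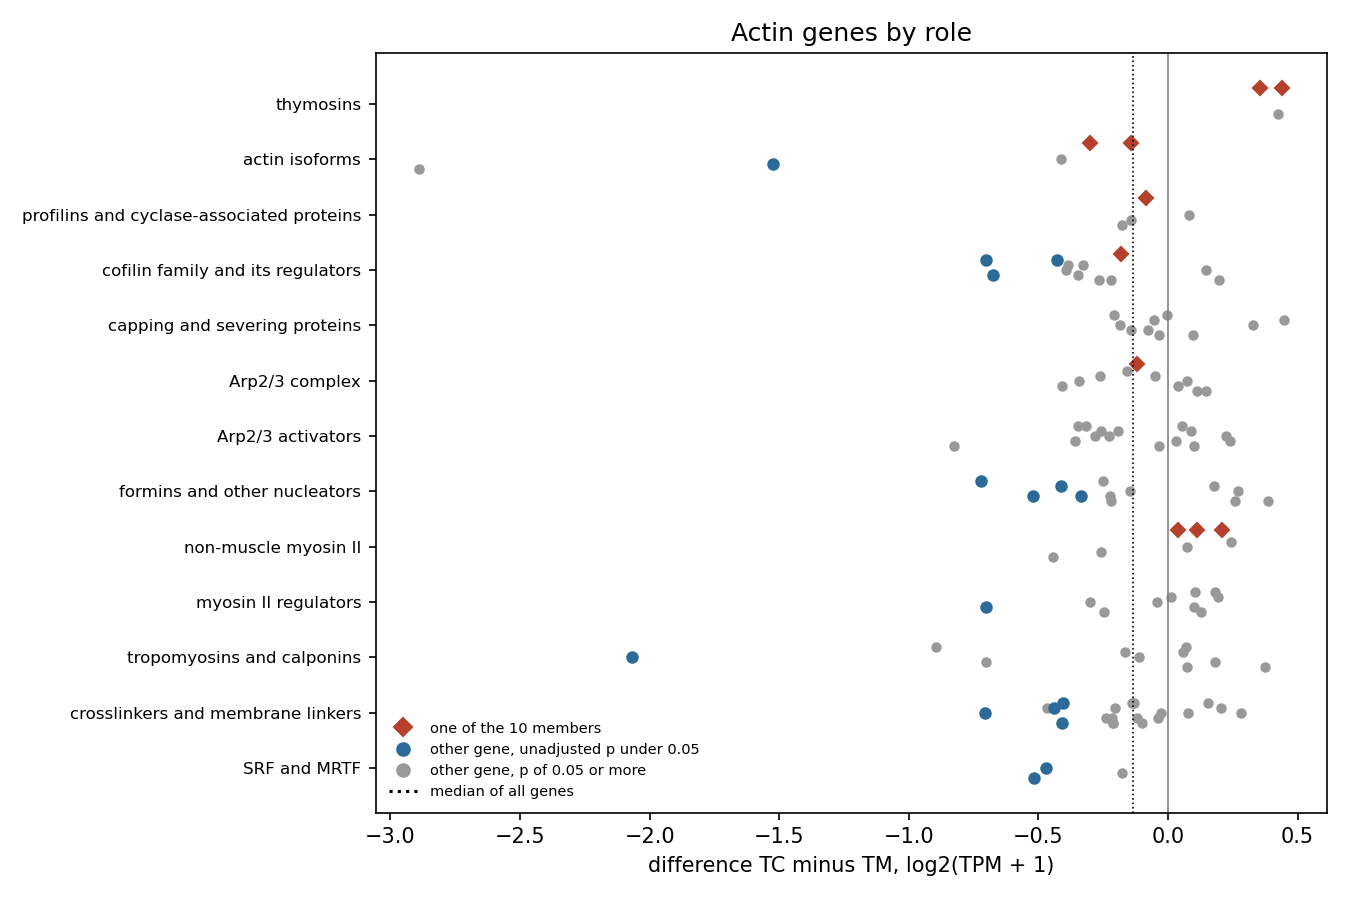
Difference between TC and TM on the log2(TPM + 1) scale for the genes of each role, with the 10 members as red diamonds, other genes at an unadjusted p under 0.05 in blue and the rest in grey; the dotted line is the median of all genes. All blue points lie below 0, and the thymosins lie above 0.

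Among the abundant non-members, TAGLN2, FLNA, RHOA and TPM4 overlapped between the regions. Their mean levels in TC were 868, 725, 706 and 495 TPM, and in TM 822, 778, 661 and 471 TPM. Of the myosin paralogs, MYL6B had 123 and 117 TPM and MYL9 had 60.2 and 50.3 TPM, both with overlap. The heavy chain MYH9, which carries these light chains, was lower in TC without overlap, at 413, 398 and 295 TPM against 424, 473 and 414 TPM. Its nearest samples were almost equal, and 18.9% of all genes were lower without overlap. The log2 difference was -0.26 (SE 0.15, limma adjusted p = 0.475), and -0.078 after median-of-ratios rescaling.

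The actins of muscle were high in the samples with muscle signal, TM replicates 1 and 2. ACTA1, the actin of skeletal muscle and itself a marker in the list above, stood at 1.86, 2.76 and 2.87 TPM in TC and at 53.7, 165 and 0.87 TPM in TM. ACTC1, the cardiac actin, stood at 11.6 and 35.3 TPM in TM replicates 1 and 2, was at 0 in TM replicate 3 and reached no more than 0.18 TPM in TC. ACTA2, of smooth muscle and activated fibroblasts, stood at 42.6, 41.3 and 59.0 TPM in TC and 176, 218 and 66.5 TPM in TM. It was separate between the groups, with a difference of -1.52 that was -0.49 without TM replicates 1 and 2. ACTG2 overlapped, from 8.46 to 11.2 TPM in TC and from 4.78 to 23.9 TPM in TM. TPM2, a muscle-type tropomyosin that fibroblasts also make, stood at 14.5, 18.4 and 16.0 TPM in TC and 57.0, 167 and 37.5 TPM in TM. Its difference of -2.07 (adjusted p = 0.0926 by limma) was -1.16 without TM replicates 1 and 2. The summed smooth muscle and pericyte markers, ACTA2 among them, were 277 and 407 TPM in TM replicates 1 and 2, 76.6 TPM in TM replicate 3 and 56.85 to 76.55 TPM in TC. In TM replicate 2, where it was highest, ACTA1 reached 165 TPM beside 5573 TPM of ACTB.

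**Figure D5:**
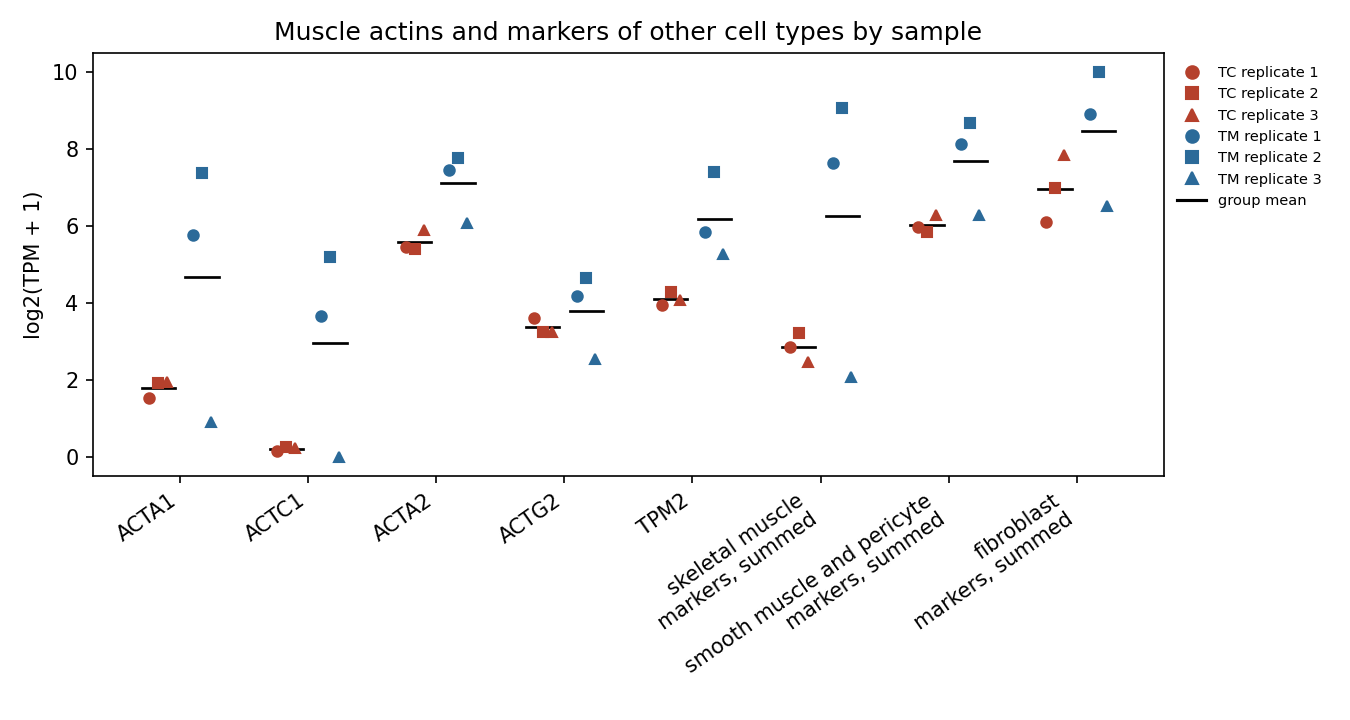
Level on the log2(TPM + 1) scale of the muscle actins and TPM2, and the summed TPM of 3 marker lists, in the TC (red) and TM (blue) samples, with a black line at each group's mean. TM replicates 1 and 2 (circle and square) lie highest for every item, and TM replicate 3 (triangle) lies beside or below the TC samples for all items but TPM2 and ACTA2.

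SRF, the factor that binds CArG boxes, and its cofactor MRTFA were lower in TC without overlap, as were 18.9% of all genes. The other listed cofactor, MRTFB, overlapped, at 4.92, 2.68 and 2.08 TPM in TC and 4.03, 3.16 and 3.65 TPM in TM, a difference of -0.18. SRF stood at 20.1, 21.0 and 19.3 TPM in TC and 30.3, 29.7 and 25.1 TPM in TM, a difference of -0.47 (SE 0.15, limma adjusted p = 0.181). MRTFA stood at 17.9, 15.3 and 13.3 TPM in TC and 26.4, 21.9 and 19.6 TPM in TM, a difference of -0.52 (SE 0.19, adjusted p = 0.226). After median-of-ratios rescaling the differences of SRF and MRTFA were -0.30 and -0.35, with unadjusted limma p-values of 0.069 and 0.049. Without TM replicates 1 and 2 they were -0.31 and -0.33.

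Promoter windows of 250 bases upstream of the start, from RefSeq on GRCh38.p14, were found for 9 members and 117 of the 130 listed actin genes, members included, and were searched on both strands. ACTB was the member without a window, so its promoter was not searched. The CArG box was present in 1 member, ACTG1, and in 12 of the 117 genes (10.3%), against 1.44% of 27305 genes with a window. The GC box GGGCGG was present for 9 of 9 members, against 46.2% of all genes, where any window with a match counted. MYL12A and MYL12B also had windows without it. Most of the other listed actin genes with a window held it too, so it was not particular to the members. The CArG boxes of ACTG1, of SRF itself and of 2 muscle actins are printed, with the box in capitals and its flanks in lower case, to show the element that SRF is known to bind.
ACTG1, chr17:81512859-81512918, minus strand: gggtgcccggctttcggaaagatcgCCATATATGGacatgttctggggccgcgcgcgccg
SRF, chr6:43171214-43171268, plus strand: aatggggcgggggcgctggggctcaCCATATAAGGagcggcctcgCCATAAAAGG
ACTA1, chr1:229434157-229434216, minus strand: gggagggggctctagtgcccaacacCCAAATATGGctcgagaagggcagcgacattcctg
ACTG2, chr2:73892873-73892969, plus strand: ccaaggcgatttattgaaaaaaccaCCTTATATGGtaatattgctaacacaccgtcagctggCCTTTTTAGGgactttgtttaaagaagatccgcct
The nearest box began 94 bases upstream of the start in ACTG1, 10 in SRF, 97 in ACTA1 and 73 in ACTG2. Of the 12 genes with a box 11 were tested, 8 had a negative and 3 a positive difference, and their median was -0.11, beside -0.14 for all genes. SRF was the sole gene of these at an unadjusted p under 0.05. A match of letters is a description of the window and not of binding.

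The members did not share a single pattern over the 6 samples. The root mean square difference between centred log2 profiles was smallest for ACTB and CFL1, at 0.14, and next for ACTG1 and CFL1, at 0.15, and for MYL12A and MYL12B and for TMSB10 and TMSB4X, at 0.16 each. It was largest for PFN1 and MYL12A, at 0.45. The mean profile of the 10 members stayed between -0.09 in TM replicate 3 and 0.04 in TC replicate 2. Of 1287 other genes with a mean of at least 100 TPM, those nearest to that mean profile were RPLP2, RHOC, TBCB, HIGD2A and BHLHE40, at distances of 0.029 to 0.045. Because the mean profile was nearly flat, this nearness marks genes that varied little over the samples, and not genes that follow the members. RPLP2 (a ribosomal stalk protein) had 4177 to 4419 TPM in TC and 4145 to 4372 TPM in TM.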

How the data were processed

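RNA-seq of 3 TC and 3 TM samples was read from a gene matrix of TPM deposited by the authors. Per the labels, TruSeq libraries were made from total RNA, and the submitters' processing notes name HISAT2, StringTie, RSEM and hg38, with no version. The authors' TPM columns summed to 1000000, except 994381 in TM replicate 3 over the 60930 rows, 259 of them assembled loci that were left out of the main test. TPM are no counts, so the count test named in the study's methods was not run. Values were tested as log2(TPM + 1) with limma 3.58.1 (R 4.3.3, trended empirical Bayes, Benjamini-Hochberg), called at an adjusted p under 0.05 and checked on simulated data. Fold changes on this scale understate changes of low genes. Ratios between members were tested by exact permutation (scipy 1.17.1). Named genes were the members, listed paralogs, the 12 other actin genes with the smallest p, the 5 most abundant, the 5 nearest profiles and pseudogenes of at least 1 TPM. Values or calls of further genes are given though outside that rule, chosen after their values were seen. From the actin list these were TESK1, FMNL1, FMNL3, SPIRE2, MRTFB, CAP1, MYH9, ARPC1A, TAGLN and WASHC1. From the marker lists they were VIM, KRT81, EGFR, ESR1, ERBB2, CD68, CSF1R, C1QA, C1QB, C1QC, TYROBP, ESAM and ROBO4. The members and lists were chosen with earlier results of these data known. Of 220 listed symbols, 219 were found.

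Summed ranges of the other marker lists over the samples were 5737 to 7452 TPM (8 tumor cell markers), 26.6 to 46.0 (5 markers low in this line), 38.1 to 56.4 (11 endothelial), 96.5 to 114 (14 macrophage and leukocyte), 0.66 to 1.64 (8 adipocyte), 0.29 to 6.93 (8 erythroid) and 0.16 to 0.79 TPM (6 platelet). Alternatives covered the pseudocount, filters, scaling, moderation, replicate block, pseudogene rows and left-out samples.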

Additional observations from a re-analysis of the deposited data

How the results depend on the processing

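TMSB10 and TMSB4X stayed above 0 and ACTB below 0 under the 11 alternatives that rescale the values or leave samples out (the others move the difference little or not at all by construction), with ranges of 0.37 to 0.77, 0.07 to 0.54 and -0.42 to -0.12. Over all 19 alternatives the limma adjusted p-values were 0.104 to 0.561, 0.114 to 0.915 and 0.172 to 0.847. The 19 genes called became 7 with a pseudocount of 0.1, 1 without a filter, 4 with quantile normalization, 6 with median-of-ratios rescaling, 8 without mitochondrial and ribosomal protein genes, 12 without the trend, 47 with robust moderation, 1 to 17 when a sample was left out (4 without TC replicate 1, 1 without TC replicate 3, 1 without TM replicate 1, 9 without TM replicate 2) and 195 without TM replicates 1 and 2. The cause was not tested. In the last fit TM replicate 3 was assumed to vary like the other group. The actin genes called, 0 in the main test, were 0 to 3 when a sample was left out, with ACTA1, ACTA2 and TAGLN called without TM replicate 3, and 1 (WASHC1) without TM replicates 1 and 2. The 16 lower actin genes became 10 without TM replicate 1 and 25 without TM replicate 3.

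The members' median of -0.02 was -0.14 with quantile normalization, 0.16 with median-of-ratios rescaling and 0.079 without TM replicates 1 and 2. Reversals were ACTG1 (0.037), PFN1 (0.096) and ARPC2 (0.058) under median-of-ratios, MYL6 (-0.10) under quantile normalization, MYL12B (-0.013) without mitochondrially encoded genes, and ACTG1 (0.18), PFN1 (0.37), CFL1 (0.084), MYL12A (-0.046) and MYL12B (-0.13) without TM replicates 1 and 2. When a sample was left out, PFN1 ranged from -0.31 to 0.058 and MYL12B from -0.054 to 0.12. The log2 ratios then ranged from -0.049 to 0.21 for TMSB10 to TMSB4X, -0.032 to 0.15 for CFL1 to actins, -0.13 to 0.21 for the regulatory light chains to MYL6 and -0.020 to 0.22 for ARPC2 to actins, while thymosins to actins stayed between 0.54 and 0.81.

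The labels do not tie replicate numbers to a mouse, and deviations of same-numbered samples correlated by 0.21, -0.12 and -0.16, so the numbers were not used to pair samples, and whether they mark a shared mouse is not known. With the replicate block 1 gene was called in place of 19, and 0 actin genes; differences cannot change under it, and the adjusted p of TMSB10 went from 0.198 to 0.350, while the thymosin-to-actin ratio had an exact p of 0.25, the smallest that 3 pairs allow. TC replicate 2 and TC replicate 3 did not correlate best with their own number. Depth is not known from TPM, so counting error could not be given.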
